A study of Mus musculus with 8 samples.

Results

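Gem encodes a small GTPase of the RGK family and was measured by 1 probe, probe 5520 (Entrez gene 14579), of the 10500 probes on the array, which cover 6370 genes by symbol. It was chosen by its measured rise in these same muscles, stimulated over contralateral, so its own change is described without a test. The data come from 4 male Swiss Webster mice. In each mouse a fast muscle of the lower hindlimb, the extensor digitorum longus (EDL), contracted for 4 h under electrical stimulation of the sciatic nerve, and the EDL of the opposite leg was left unstimulated. The groups are therefore 4 stimulated EDL and 4 contralateral EDL, paired within mice 183, 197, 438 and 440, with no added allele or drug named in the labels. No muscle from an untouched animal is among the samples, so an effect of the procedure shared by both legs cannot be seen. Each muscle was read on 1 single-colour CodeLink array, and levels are intensities on the authors' normalized scale, or log2 of them where stated.

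RGK proteins are small GTPases related to Ras that bind the beta subunits of voltage-gated calcium channels and reduce calcium entry through the channel. Gem was first described as a mitogen-induced gene of T cells, and it also binds calmodulin and 14-3-3 proteins. In skeletal muscle the L-type channel acts as the voltage sensor that triggers calcium release from internal stores.

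Gem was higher in the stimulated muscle of every mouse, by 9.12-fold in the fit over the 4 pairs. Its intensity was 7.98, 6.76, 2.15 and 8.38 in the stimulated EDL of mice 183, 197, 438 and 440, against 1.22, 0.969, 0.213 and 0.559 in their contralateral EDL. The lowest stimulated muscle, that of mouse 438, was 1.77 times the highest contralateral muscle, that of mouse 183, so the groups did not overlap. Means were 6.32 ± 2.86 in stimulated EDL and 0.739 ± 0.443 in contralateral EDL (SD, n = 4 each). Of 10245 probes with complete values, 1.56% had every stimulated muscle above every contralateral muscle. None of the 8 Gem values was at the floor that was set for dim probes (0.0937), and the lowest was 2.27 times that floor.

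**Figure D1:**
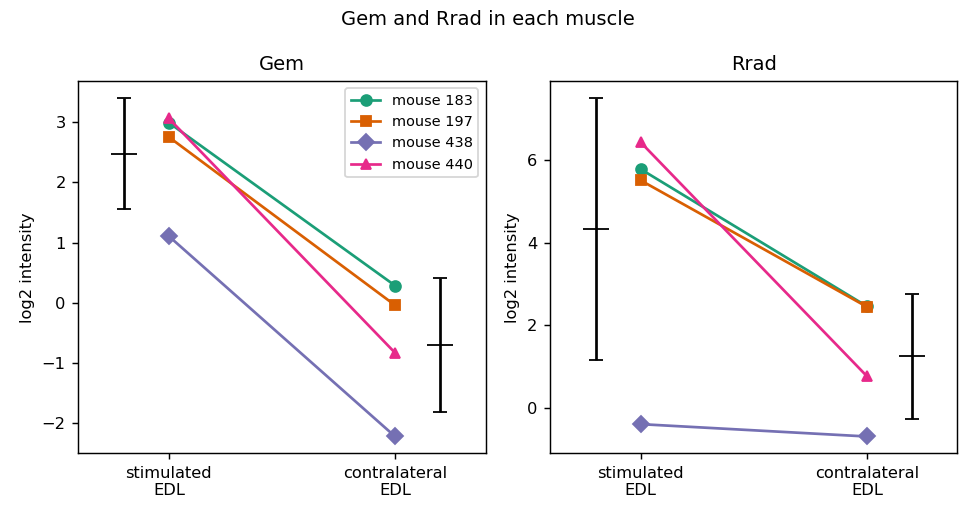
Log2 intensity of Gem (left) and Rrad (right) in the stimulated and contralateral EDL of each mouse, with lines joining the muscles of 1 mouse and black bars giving mean ± SD over 4 muscles. The vertical scales of the panels differ. The 4 Gem lines run nearly parallel, with mouse 438 lowest in both muscles, while the Rrad line of mouse 438 is almost flat.

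The log2 change of Gem, stimulated minus contralateral, was 2.71, 2.80, 3.34 and 3.90 in mice 183, 197, 438 and 440, which is 6.56-fold, 6.97-fold, 10.1-fold and 15.0-fold. Mice 183 and 197 had the brighter contralateral values and the smaller changes. The mean change was 3.19 with an SD of 0.55 over mice and a moderated standard error (SE) of 0.25 from limma, which draws each probe's variance toward that of probes of like intensity. Of the scatter of its 8 log2 values, 76.3% lay between stimulated and contralateral muscle, 22.0% between mice and 1.70% in neither. Mouse 438 carried the lowest Gem level in both muscles, at 2.15 in stimulated and 0.213 in contralateral EDL, yet its change was the second largest.

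By size of change Gem stood at place 3 of 10406 tested probes and at place 2 of 6315 genes with a symbol. Within single mice its place was 35, 11, 19 and 26 in mice 183, 197, 438 and 440. These places only describe Gem, which was chosen for its rise. The smallest Gem change, 2.71, was also used as a mark, which Gem meets by definition. Of the 10245 complete probes 2 reached it in all 4 mice, Gem and the chemokine gene Ccl7. Ccl7 had a lowest change of 2.76. Over all tested probes 1.34% passed adjusted p 0.05 (limma with mouse as a block, Benjamini-Hochberg), 1.11% as higher and 0.231% as lower. The median log2 change was -0.14, and 64.7% of changes were negative. In an alternative that averaged the probes of 1 gene symbol, 1585 of 10403 had unadjusted p under 0.05 (limma). The list counts at unadjusted p given below are to be read beside that share, not beside the 1.34% called.

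The RGK family has 4 genes, and of the 3 besides Gem only Rrad is named on the array, by 1 probe. Rrad encodes Rad, a GTPase first described through its raised transcript in the muscle of people with type 2 diabetes. Its intensity was 55.0, 45.5, 0.761 and 86.2 in the stimulated EDL of mice 183, 197, 438 and 440, against 5.50, 5.45, 0.619 and 1.70 in their contralateral EDL. The stimulated muscle of mouse 438 lay below 3 of the 4 contralateral muscles, so the groups overlapped. Log2 changes were 3.32, 3.06, 0.30 and 5.66, a span of 5.36 against 1.19 for Gem. The fitted Rrad change was 3.09 ± 0.64 (SE, n = 4 mice), positive in 4 of 4 mice, and it did not pass over all probes (limma adjusted p = 0.0576). Without mouse 438 it was 4.02 and passed (adjusted p = 0.00703), and without mouse 440 it was 2.23 and passed (adjusted p = 0.041). For Rrad 33.9% of the scatter of the log2 values lay between groups, 53.2% between mice and 12.9% in neither.

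**Figure D2:**
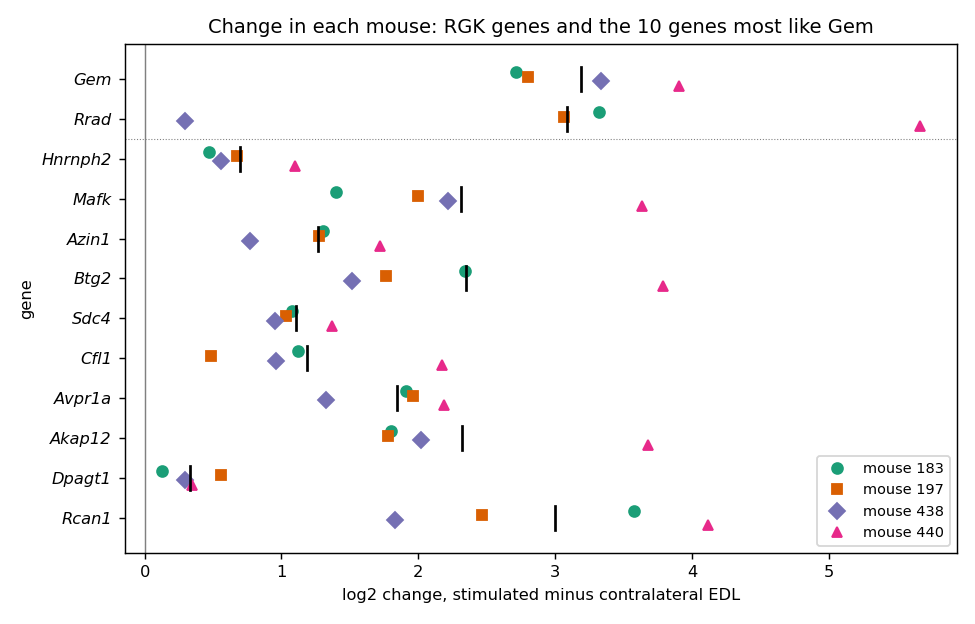
Log2 change in each mouse, stimulated minus contralateral EDL, for Gem and Rrad above the dotted line and, below it, for the 10 genes whose levels followed Gem most closely. Coloured symbols are mice and black bars the fitted change. Gem spans 2.71 to 3.90, and Rrad spans 0.30 to 5.66.

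The channel subunits that RGK proteins act on showed no called change. Of 27 listed genes for voltage-gated calcium channels and the adaptor Stac3, 13 were tested, and 0 rose, 0 fell and 13 did not pass (limma, with 1 gene at unadjusted p under 0.05), against 1.34% of all probes called. Their median log2 change was -0.19 beside -0.14 for all tested probes, with 3 positive and 10 negative, where 64.7% of all probes were negative. Cacna1s, the pore and voltage sensor of the skeletal muscle L-type channel, had intensities of 63.5, 42.7, 66.8 and 40.5 in stimulated EDL of mice 183, 197, 438 and 440, against 69.9, 65.4, 70.8 and 62.1 in contralateral EDL. It was lower in the stimulated muscle of all 4 mice, by 0.36 ± 0.17 on the log2 scale (0.23 after cyclic loess), and did not pass (adjusted p = 0.344). Cacnb1, the beta subunit of the skeletal muscle channel, had intensities of 17.2, 14.1, 15.0 and 6.33 in stimulated EDL, against 13.1, 17.3, 18.1 and 10.8 in contralateral EDL. These ranges overlapped, and its log2 change of -0.23 ± 0.21 did not pass (adjusted p = 0.599), with -0.44 without mouse 183 and -0.057 without mouse 440.

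Cacna1c, the pore of the L-type channel of heart and smooth muscle, had the smallest p of the subunits. It stood at 0.808, 0.805, 2.78 and 3.15 in stimulated EDL of mice 183, 197, 438 and 440, against 0.564, 0.648, 0.911 and 1.10 in contralateral EDL. The stimulated muscles of mice 438 and 440 were the high ones, and the change of 0.99 ± 0.28 did not pass (adjusted p = 0.15). It was 0.42 within mice 183 and 197 and 1.57 within mice 438 and 440. Cacna1f, an L-type pore known from the retina, had a change of 0.27 ± 0.19, and the T-type pores Cacna1g, with 2 values at the floor, and Cacna1h had -0.36 ± 0.26 and -0.06 ± 0.33. Cacna1a and Cacna1b, pores known mainly from nerve cells, had changes of -0.28 ± 0.32 and -0.19 ± 0.24. Cacna1h was negative on the deposited scale and at 0.19 and 0.04 after quantile and cyclic loess normalization, where Cacna1g was at -0.15 and -0.047.

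Among genes that release, take up or store calcium, 16 of 36 listed were tested. Of these 0 rose, 0 fell and 16 did not pass (limma, with 2 at unadjusted p under 0.05), against 1.34% of all probes called. Their median log2 change was -0.24, with 5 positive and 11 negative, where 64.7% of all probes were negative. Atp2a1, the calcium pump of fast fibres, had intensities of 649, 868, 1027 and 1105 in stimulated EDL of mice 183, 197, 438 and 440, against 980, 1083, 1197 and 2878 in contralateral EDL. It was lower in all 4 mice, by 0.63 ± 0.20 on the log2 scale, and did not pass (adjusted p = 0.197). Pvalb, the calcium buffer parvalbumin, had a change of -0.49 ± 0.15, Atp2b2, a calcium pump of the cell membrane, -0.54 ± 0.25, and Casq1, which stores calcium in fast fibres, -0.27 ± 0.16, and these 3 did not pass. After quantile and cyclic loess normalization Atp2a1 was at -0.25 and -0.37, Pvalb at -0.12 and -0.24 and Casq1 at -0.12 and -0.084. Without mouse 440 Atp2a1 was at -0.38 and Atp2b2 at -0.26. Muscle fibre markers outside calcium handling did not pass either. Their changes ran from -0.54 ± 0.16 for Ckm, muscle creatine kinase, to 0.18 ± 0.17 for Actn2. Between them were Tnni2, a fast troponin, at -0.50 ± 0.15, Tnnt3 at -0.30 ± 0.14 and Actn3 at -0.25 ± 0.15. These markers were not followed through the other normalizations.

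**Figure D3:**
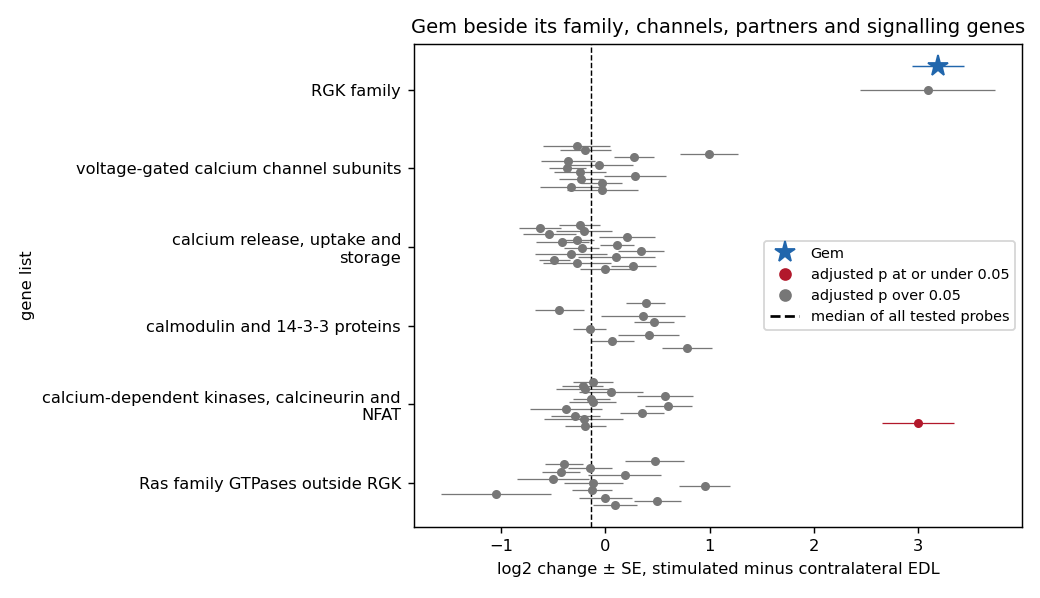
Log2 change with SE for each tested gene of 6 lists, stimulated minus contralateral EDL, with Gem as a blue star, called genes in red, other genes in grey and the median of all tested probes as a dashed line. Gem at 3.19, Rrad at 3.09 and Rcan1 at 3.00 stand to the right of the other genes, the next being Cacna1c at 0.99.

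Of the proteins that Gem binds outside the channel, calmodulin and 14-3-3 genes gave 8 tested members of 10 listed. Of these 0 rose, 0 fell and 8 did not pass (limma, with 2 at unadjusted p under 0.05), against 1.34% of all probes called. The median log2 change was 0.37, with 6 positive and 2 negative, where 64.7% of all probes were negative. The 14-3-3 genes Ywhaz and Ywhab had changes of 0.78 ± 0.24 (n = 3 mice, as 1 contralateral value was missing) and 0.47 ± 0.19. The calmodulin genes had changes of opposite sign, Calm2 at 0.39 ± 0.19 and Calm3 at -0.44 ± 0.24. Without mouse 183 Calm2 was at 0.25 and Ywhab at 0.31, and without mouse 440 Calm3 was at -0.13.

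Calcium-dependent kinases, calcineurin and NFAT genes were represented by 14 tested members of 32 listed. Of these 1 rose, 0 fell and 13 did not pass, against 1.34% of all probes called. The median log2 change was -0.13, with 5 positive and 9 negative, where 64.7% of all probes were negative. The member that rose was Rcan1, an inhibitor of the phosphatase calcineurin and itself a known calcineurin target. It had 18.0, 23.8, 4.77 and 13.3 in stimulated EDL of mice 183, 197, 438 and 440, against 1.51, 4.32, 1.34 and 0.764 in contralateral EDL. The groups did not overlap, with mouse 438 the lowest stimulated muscle as for Gem, and the change was 3.00 ± 0.34 (limma adjusted p = 0.00555). Its call ended without mouse 183 (log2 change 2.80, adjusted p = 0.0662). The transcription factors Nfatc1 (0.60 ± 0.23), Crem (0.57 ± 0.27) and Nfatc4 (0.35 ± 0.21) did not pass. Crem was at 0.30 without mouse 440 and Nfatc4 at 0.23 without mouse 197.

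Other small GTPases of the Ras family gave 13 tested members of 31 listed. Of these 0 rose, 0 fell and 13 did not pass (limma, with 2 at unadjusted p under 0.05), against 1.34% of all probes called. Their median log2 change was -0.11, and their changes ran between -1.04 and 0.95. The highest was Rasd1, a GTPase known to be induced by dexamethasone. It stood at 2.34, 2.70, 1.34 and 7.28 in stimulated EDL of mice 183, 197, 438 and 440, against 1.23, 2.39, 0.511 and 2.95 in contralateral EDL. The groups overlapped, and the change of 0.95 ± 0.25 did not pass (adjusted p = 0.119). The Ras relatives Rala (-0.43 ± 0.18), Rras (0.50 ± 0.23) and Nkiras1 (-0.40 ± 0.18) did not pass, with Rras at 0.26 without mouse 440.

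The genes whose profile was most like that of Gem were ranked by Pearson's r of log2 intensity over the 8 arrays, among 6244 genes with complete values. The arrays share mice in pairs, and stimulation moves many of these genes, so r describes both sources of likeness. In order they were Hnrnph2 (r = 0.95), Mafk (0.94), Azin1 (0.93), Btg2 (0.93), Sdc4 (0.93), Cfl1 (0.92), Avpr1a (0.92), Akap12 (0.91), Dpagt1 (0.91) and Rcan1 (0.90), and the 11th gene had 0.90. Rrad stood at place 25, with r = 0.87. All 10 had positive changes in 4 of 4 mice, against 8.45% of complete probes, and 7 of the 10 passed the test. Hnrnph2, Cfl1 and Dpagt1 did not pass. The calls of all 7 ended without mouse 183, with adjusted p of 0.0622 for Mafk to 0.183 for Azin1, and those of Azin1, Sdc4, Avpr1a and Mafk also ended without mouse 197 (0.0548 for Mafk to 0.162 for Azin1). Without mouse 438 the calls of Azin1 (adjusted p = 0.0525) and Sdc4 (0.0587) ended as well. A rank by likeness to a stimulated profile selects such genes, so these counts only describe the list. The order rests on the measure: 1 of the 10 was among the top 10 by Spearman's rank correlation, and 1 after each mouse's mean was subtracted.

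Among these genes Mafk, a small Maf transcription factor, had 10.3, 11.0, 6.19 and 10.8 in stimulated EDL of mice 183, 197, 438 and 440, against 3.90, 2.76, 1.33 and 0.866 in contralateral EDL. Like Gem it was lowest in mouse 438 among stimulated muscles, but its lowest contralateral muscle was that of mouse 440. Btg2, an antiproliferative early gene, had 18.0, 22.3, 3.01 and 17.2 in stimulated EDL, against 3.56, 6.54, 1.05 and 1.24 in contralateral EDL. Mouse 438 was lowest in both muscles for Btg2, as for Gem, and its stimulated value lay below 2 contralateral ones. Akap12, a scaffold that anchors protein kinase A, had 18.4, 44.3, 8.86 and 58.5 in stimulated EDL, against 5.28, 12.9, 2.18 and 4.56 in contralateral EDL. Mouse 438 was again lowest in both muscles, and its stimulated value lay below the contralateral value of mouse 197.

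Sdc4, a cell surface proteoglycan, had 14.9, 20.8, 10.6 and 22.0 in stimulated EDL of mice 183, 197, 438 and 440, against 7.06, 10.1, 5.49 and 8.51 in contralateral EDL. Its changes ran between 0.96 and 1.37 on the log2 scale, a narrower span than that of Gem. Hnrnph2, an RNA-binding protein of splicing, had 3.75, 4.68, 2.81 and 4.53 in stimulated EDL, against 2.71, 2.94, 1.91 and 2.12 in contralateral EDL. The groups overlapped for Hnrnph2. It had the highest r with a change of only 0.70 ± 0.20, since r takes no account of size. Cfl1, the actin-severing protein cofilin, had 14.1, 12.3, 8.94 and 16.3 in stimulated EDL, against 6.47, 8.77, 4.61 and 3.62 in contralateral EDL. All stimulated muscles lay above all contralateral muscles for Cfl1, and its change of 1.18 ± 0.26 did not pass (adjusted p = 0.075). Azin1, which stabilises ornithine decarboxylase, changed by 1.27 ± 0.23, and Avpr1a, a vasopressin receptor, by 1.85 ± 0.26. The groups overlapped for both. Avpr1a was dim, with 1 contralateral value at the floor. Its change was 1.45 with no floor and also with the floor at the 20th percentile. Dpagt1, an enzyme of protein glycosylation, had a change of 0.33 ± 0.25 that did not pass, and 0.59 after cyclic loess.

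The arrays were alike in their median intensity, at 0.900 to 0.939. Probes with a value numbered 10367 to 10421 in mice 183 and 197 and 10468 to 10474 in mice 438 and 440. Of 9 tested muscle fibre markers (Pvalb, Actn3 and Tnni2 among them) none was at the floor on all 8 arrays. They summed to 4945 to 8942 in stimulated EDL and 7332 to 15175 in contralateral EDL. No list of slow fibre genes was set beside them, so fibre type was not tested. Of these 9 markers 8 had negative changes and 0 passed (6 at unadjusted p under 0.05), with a median of -0.49. Over all tested probes 64.7% of changes were negative and 1.34% were called. Gem can also be made by blood, vessel and connective tissue cells, and in whole muscle more such cells and more RNA per cell cannot be told apart. Of 14 tested leukocyte markers 0 passed (4 at unadjusted p under 0.05). Changes were positive for 7 and negative for 7, with a median of 0.017. Cd14, an endotoxin co-receptor of myeloid cells, had a change of 1.64 ± 0.40 and Fcgr3, an antibody receptor, of 0.61 ± 0.21, both positive in 4 of 4 mice, and Cd14 stood at 116 in the stimulated and 9.76 in the contralateral muscle of mouse 440. Among the 7 negative ones were Cd3g at -0.93 ± 0.37, Lyz2 at -0.26 ± 0.25 and Itgam at -0.14 ± 0.32. The summed intensity of the 14 markers was 28.8 to 581 in stimulated EDL and 25.9 to 120 in contralateral EDL. The highest value was that of mouse 440, where S100a8 alone had 418 in the stimulated muscle and 78.4 in the contralateral muscle.

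Of 9 endothelial markers 0 passed (1 at unadjusted p under 0.05, limma), against 1.34% of all probes called. Changes were positive for 5 and negative for 4, with a median of 0.050. Kdr had a change of 0.63 ± 0.19, positive in 4 of 4 mice, and Cdh5 had -0.53 ± 0.33. The sums of the 9 were 21.0 to 38.9 in stimulated EDL and 22.4 to 35.5 in contralateral EDL. Of 6 fibroblast markers 0 passed, with 4 positive and 2 negative changes and a median of 0.095. The sums of the 6 were 58.5 to 240 in stimulated EDL and 59.9 to 245 in contralateral EDL. Of 7 satellite cell markers 1 rose, Sdc4, which many cell types make and whose call was lost in 9 of 16 alternatives. Changes were positive for 6 and negative for 1, with a median of 0.42 (2 at unadjusted p under 0.05, limma). Myod1 had a change of 1.12 ± 0.46, positive in 3 of 4 mice, that did not pass. The sums of the 7 were 57.3 to 134 in stimulated EDL and 50.3 to 86.6 in contralateral EDL. No tested marker of these 4 lists was at the floor on all arrays, although Ptprc, the pan-leukocyte antigen, was there on 2 and Cd3e, of the T cell receptor, on 3. The part of these cells in the Gem level was not tested.

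**Figure D4:**
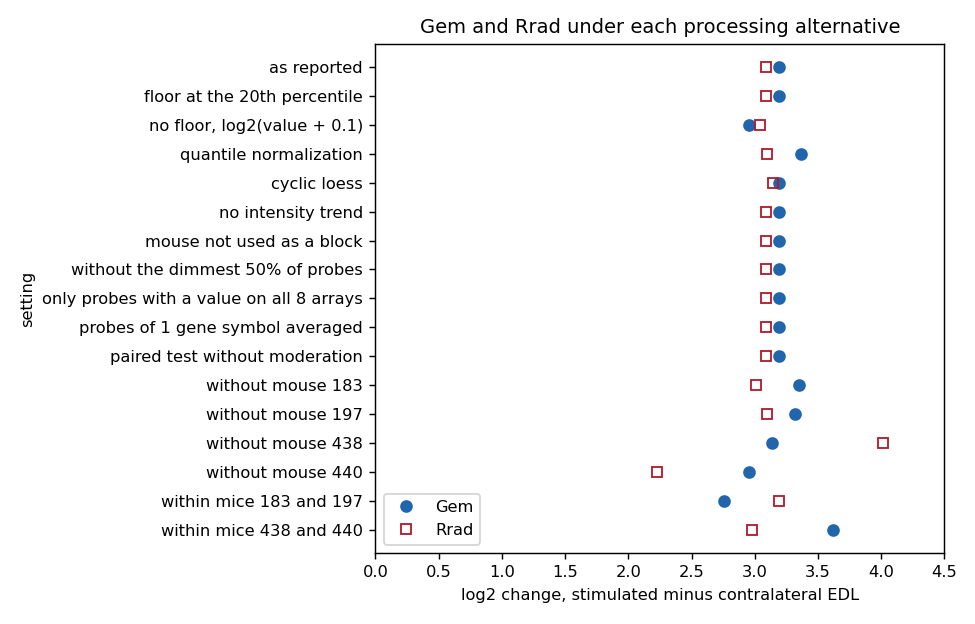
Fitted log2 change of Gem (filled circles) and Rrad (open squares), stimulated minus contralateral EDL, as reported and under 16 other processing settings. Gem stays between 2.76 and 3.62, while Rrad runs from 2.23 without mouse 440 to 4.02 without mouse 438.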

How the data were processed

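Gene expression was measured in 8 EDL muscles of 4 mice, on 1 array each. The deposited table holds 1 intensity per probe and array, normalized by the authors. Per the labels' protocols, biotin-labelled cRNA was hybridised to CodeLink arrays with 6 bacterial control mRNAs for intensity normalization. Background correction and software are not given in the sources used here. Of 10500 probes, 6373 carry 1 symbol, 0 several and 4127 none in the platform annotation. All 6373 symbols matched RefSeq's genes of assembly GRCm38.p6 by Entrez identifier, which was used for names alone. Probe sequences were not used, so cross-hybridisation between related genes was not checked.

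Intensities under the 5th percentile of positive values (0.0937) were raised to it before log2 was taken. Probes with both muscles measured in at least 3 mice were tested (10406) with limma 3.58.1 (R 4.3.3). The model held each mouse as a block, the variance prior followed intensity, and p-values were adjusted by Benjamini-Hochberg over all of them at 0.05, two-sided. The pairing comes from the titles, which give both muscles of a mouse 1 number. Deviations from group means correlated by 0.52 to 0.64 within mice. The highest correlation of each stimulated muscle with the contralateral muscle of another mouse was 0.18 to 0.45. The 4 pairs limit the precision, with a median SE of 0.26.

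Gem, the lists and the rules were chosen with earlier results of these data known. The genes named are Gem, Rrad, every called gene and the 4 of smallest p in each of 6 lists (another list is not reported here), the measured alpha1 and beta channel subunits, and the 10 genes most like Gem. A gene with several probes was represented by the brightest. Gem was left out of the list counts. In all 16 alternatives were tried.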

Additional observations from a re-analysis of the deposited data

Results flagged for a closer look

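Within groups of 4 muscles, 5 of 69 sets of log2 values for the genes named above had 1 muscle farther from the others than Dixon's 95% limit for 4 samples, and chance alone marks about 1 in 20 such sets. Mafk and Btg2 are among these genes because they follow Gem over the same arrays, so their marks are not independent of that of Gem. In the stimulated muscle of mouse 438 Gem had a log2 intensity of 1.11, where the other stimulated muscles had 2.76 to 3.07. Rrad had -0.39 there, against 5.51 to 6.43 in the others, Mafk had 2.63 against 3.37 to 3.46, and Btg2 had 1.59 against 4.10 to 4.48. In contralateral EDL, Calm2 had 5.00 in mouse 183, against 5.32 to 5.35 in the other 3 mice.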

How the results depend on the processing

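The Gem change was 3.37 after quantile normalization, 3.19 after cyclic loess and 2.96 with no floor. The other settings for all 4 mice left its value as it was, since they alter only the test, the probes tested or dimmer values. It was 2.95 to 3.35 on leaving out 1 mouse, 2.76 within mice 183 and 197 and 3.62 within mice 438 and 440. These are means over fewer of the same positive changes, so they could not turn in sign or move by more than the SD over mice. The range therefore describes Gem and tests nothing. The count of called probes, 139 as reported, depended on the test: it was 0 with the floor at the 20th percentile (1296 at unadjusted p under 0.05) and with a paired test without moderation (1208), 50 without an intensity trend, 7 to 194 on leaving out 1 mouse (7 without mouse 183, 58 without mouse 197), 0 within mice 183 and 197 (858 at unadjusted p) and 69 within mice 438 and 440. With no replicate block it was 1 (477 at unadjusted p), and the adjusted p of Rrad was 0.991. Of the calcium-dependent kinases, calcineurin and NFAT genes, 0 passed in place of 1 with the 20th percentile floor, with no replicate block, without moderation and within mice 183 and 197, and 0 to 1 on leaving out 1 mouse. Rrad, the 1 RGK gene counted, passed without mouse 438 and without mouse 440 (0 to 1 over the 4 mice left out). Calls were lost in 10 of 16 alternatives for Azin1, 9 of 16 for Sdc4, 7 of 15 for Avpr1a, 6 of 16 for Mafk and 5 of 16 each for Btg2, Akap12 and Rcan1. The other 4 list counts were 0 throughout. Signs turned for uncalled channel genes: Cacna1h was 0.19 after quantile normalization, 0.040 after cyclic loess, 0.019 within mice 438 and 440 and -0.40 to 0.22 on leaving out 1 mouse; Cacna1a was 0.36 within mice 438 and 440 and -0.54 to 0.059 on leaving out 1 mouse; Cacna1b was -0.39 to 0.045 on leaving out 1 mouse; Cacnb1 was 0.050 within mice 183 and 197. The causes were not tested. Alternatives added after seeing the data show that the list of genes like Gem depends on the measure: 1 of the 10 genes was among the top 10 with the mean of each mouse subtracted, 1 with Spearman's rank correlation and 5 after cyclic loess.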
